A study of Mus musculus with 8 samples.

Results

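Paired receptors are families of closely related surface receptors in which some members dampen and others stimulate the cell. Transcript levels of 8 such genes, Cd200r1, Cd200r3, Cd200r4, Cd300a, Cd300lf, Cd300lb, Pirb and Lilrb4a, were examined in mouse bone marrow basophils and their precursors. The genes were chosen by name, and all 8 of them were found among the 55487 genes in the files, with TPM (abundance corrected for transcript length and scaled to a fixed total in each library) summed over the 49 annotated transcripts of the 8 genes. No rule on their levels was used to choose them, but they were chosen with earlier results of these data known. One of them was, however, part of the sort: every library came from cells stained for CD200R3, the product of Cd200r3, and a high Cd200r3 level in all libraries is therefore not reported as a finding.

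The study asked what loss of Nfil3, a basic leucine zipper transcription factor, does to basophils in bone marrow. All animals were C57BL/6J mice, and the deficient animals were compared with littermate controls. There were 4 groups of 2 libraries: pre-Baso and basophils, each from control mice (labelled ctrl, wild type) and from mice labelled floxed out (Nfil3-depleted). All cells were gated as lineage-, CD34-, ckit- and CD200R3+. Pre-Baso were high and basophils intermediate for MAR1, an antibody to FcεRIα, the IgE-binding chain. The age of the animals, the Cre driver and any pooling of animals into a library are not given in the sources used here. The design text calls the 2 libraries of a group biological duplicates. Each p-value thus rests on the spread within 4 such pairs, drawn toward a trend over all tested genes.

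Inhibitory members of these families carry tyrosine motifs (ITIMs) in their tails that recruit phosphatases such as SHP-1 and SHIP-1, or, for CD200R1, adaptors of the Dok family. Activating members have short tails and depend on an adaptor chain with an ITAM, DAP12 (gene Tyrobp) or the Fc receptor gamma chain (Fcer1g). In mast cells and basophils such receptors set how strongly IgE receptor signals are answered. The family names do not fix the sign: in mouse, CD200R1, CD300a, CD300lf (CLM-1), PIR-B and LILRB4 (gp49B) are known as inhibitory, whereas CD200R3, CD200R4 and CD300lb (CLM-7) pair with DAP12 and are known as activating.

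In mm10 coordinates, as the files give them, 3 members lay together on chromosome 16 within 215.6 kb on the plus strand: Cd200r1 at chr16:44765736-44794978, Cd200r4 at chr16:44811733-44839150 and Cd200r3 at chr16:44943678-44981380. A second cluster of 3 lay on chromosome 11 within 244.0 kb: Cd300a at chr11:114890041-114904654 on the plus strand, and Cd300lb at chr11:114922781-114934386 and Cd300lf at chr11:115116214-115133992 on the minus strand. Pirb lay at chr7:3711409-3720391 on the minus strand and Lilrb4a at chr10:51490956-51496611 on the plus strand.

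Promoter windows of 300 bases (250 before the annotated start site and 50 from it on, RefSeq, GRCm38.p6) were at hand for 6 of the 8 members; Cd200r1 and Lilrb4a had no entry. The windows of Cd200r3 and Cd200r4 are shown because they share sequence: 140 of 156 aligned bases were identical (89.7%) without a gap, from position 70 to 225 of the Cd200r3 window and from 144 to 299 of the Cd200r4 window. Capitals mark identical runs of at least 12 bases. Both lines are on the plus strand, at chr16:44943428-44943727 for Cd200r3 and chr16:44820478-44820777 for Cd200r4.
Cd200r3: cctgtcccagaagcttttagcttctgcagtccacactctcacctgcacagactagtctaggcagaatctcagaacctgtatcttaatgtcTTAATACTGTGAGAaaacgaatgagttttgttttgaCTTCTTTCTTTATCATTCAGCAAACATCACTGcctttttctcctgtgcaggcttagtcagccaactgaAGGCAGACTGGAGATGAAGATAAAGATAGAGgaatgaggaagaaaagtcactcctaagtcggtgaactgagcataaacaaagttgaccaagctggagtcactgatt
Cd200r4: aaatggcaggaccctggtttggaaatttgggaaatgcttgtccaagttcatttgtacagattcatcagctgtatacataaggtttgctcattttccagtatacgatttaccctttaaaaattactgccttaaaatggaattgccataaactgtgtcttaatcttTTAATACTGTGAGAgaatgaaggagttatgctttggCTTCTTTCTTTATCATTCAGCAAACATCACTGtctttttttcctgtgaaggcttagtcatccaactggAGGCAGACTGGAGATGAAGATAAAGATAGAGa
The last shared run holds AGATAA, the core that GATA factors are known to bind. This hexamer, searched on both strands, occurred once in each of these 2 windows, in none of the other 4 member windows, and in 11.2% of 32851 mouse windows of the same length. The start site behind the Cd200r3 window was 28 bases from that of its most abundant transcript in these libraries. For Cd200r4 that distance was 8972 bases, so the Cd200r4 window does not lie at the start of the transcripts to which its reads were assigned.

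The windows of Pirb (chr7:3720333-3720632, minus strand) and Cd300a (chr11:114889791-114890090, plus strand) are shown. These genes are among the members whose level differed between pre-Baso and basophils, and their windows hold the core marked here. Cd300lb also rose, but its window, which lacks that core, is not shown. Capitals mark GAGGAA, a core known from binding of the ETS factor PU.1, or its reverse complement TTCCTC.
Pirb: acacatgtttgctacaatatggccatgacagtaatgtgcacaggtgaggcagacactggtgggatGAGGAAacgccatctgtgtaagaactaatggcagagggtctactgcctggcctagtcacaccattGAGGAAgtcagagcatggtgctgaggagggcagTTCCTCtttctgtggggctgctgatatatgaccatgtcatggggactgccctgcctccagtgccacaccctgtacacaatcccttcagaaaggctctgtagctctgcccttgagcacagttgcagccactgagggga
Cd300a: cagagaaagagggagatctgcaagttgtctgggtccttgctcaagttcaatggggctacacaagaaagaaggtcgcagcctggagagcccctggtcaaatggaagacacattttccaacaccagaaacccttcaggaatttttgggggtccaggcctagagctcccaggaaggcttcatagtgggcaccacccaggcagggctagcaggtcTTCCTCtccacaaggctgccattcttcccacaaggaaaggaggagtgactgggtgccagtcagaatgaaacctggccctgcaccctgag
GAGGAA, on either strand, was found 3 times in the Pirb window, 2 times each in those of Cd300lf and Cd200r3, once in that of Cd300a, and not in those of Cd300lb and Cd200r4. It occurred in 28.3% of all windows. TTANGTAA, a spelling of the site that Nfil3 is known to bind, was in none of the 6 member windows and in 2.3% of all windows. The searched motifs did not overlap each other in these windows, and a match is a description of letters only.

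Before the members, the labels and the makeup of the libraries were checked. Nfil3 itself was at 6.61 to 22.5 TPM in the 4 control libraries and at 0 to 1.32 TPM in the 4 floxed-out libraries. Bases assigned to transcripts came to 271.7 to 398.0 megabases per library, and protein-coding genes took 18.7% to 22.4% of all TPM. The basophil granule protease gene Mcpt8 was at 969 to 7888 TPM in ctrl and at 1.98 to 6.04 TPM in floxed-out libraries. All genes of the basophil list together summed to 20756 to 34958 TPM in pre-Baso and 5663 to 11153 TPM in basophils. Markers of other cell types were not absent. The 10 neutrophil markers, led by S100a8, summed to 712 to 1143 TPM in pre-Baso and 1271 to 2353 TPM in basophils, and all 10 passed the filter on low values. The 10 monocyte and macrophage markers, led by Ly6c2, summed to 23.9 to 37.1 TPM in pre-Baso; in basophils they summed to 186.5 and 63 TPM in the ctrl libraries and 148 and 62.7 TPM in the floxed-out libraries. The 8 eosinophil markers, led by Prg2, reached 2665 TPM in the first ctrl basophil library and lay between 15.8 and 193.6 TPM in the other 7. The 8 T and NK cell markers summed to at most 1.4 TPM, with Eomes, Klrb1c and Ncr1 at 0 in every library, and the 6 mast cell markers to at most 3.1 TPM. In bulk RNA, fewer cells of a type and less RNA per cell cannot be told apart. The first library of both basophil groups thus stood apart by its monocyte markers, and results that rest on it are given with and without both first libraries, an alternative chosen after the data were seen. That alternative leaves 1 library in each basophil group, so its p-values take the spread from the 2 pre-Baso pairs and assume that the lone basophil libraries vary alike.

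Of the 8 genes, Cd200r3 was the most abundant in each population and Cd300lf the least. The cells were sorted for the product of Cd200r3, so its place is given as a description and not as a finding. The order of TPM in pre-Baso was Cd200r3, Lilrb4a and Cd200r1, then Cd200r4, Cd300a and Cd300lb with overlapping ranges, then Pirb and Cd300lf. In basophils Cd200r3 stood above Lilrb4a in 4 of 4 libraries although the ranges of both overlapped, Cd200r1 followed, and Cd300a, Cd300lb, Pirb and Cd200r4 had overlapping ranges above Cd300lf. Among 21897 protein-coding genes ranked by mean TPM, Cd200r3 was at position 102 in pre-Baso and 79 in basophils, and Lilrb4a moved from position 408 to 140. Pirb moved from 6662 to 2586, while Cd200r1 was at 1047 and 961. All 8 genes passed the filter of at least 1 TPM in at least 2 libraries; Cd300lf did so with 1 pre-Baso and all 4 basophil libraries.

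**Figure D1:**
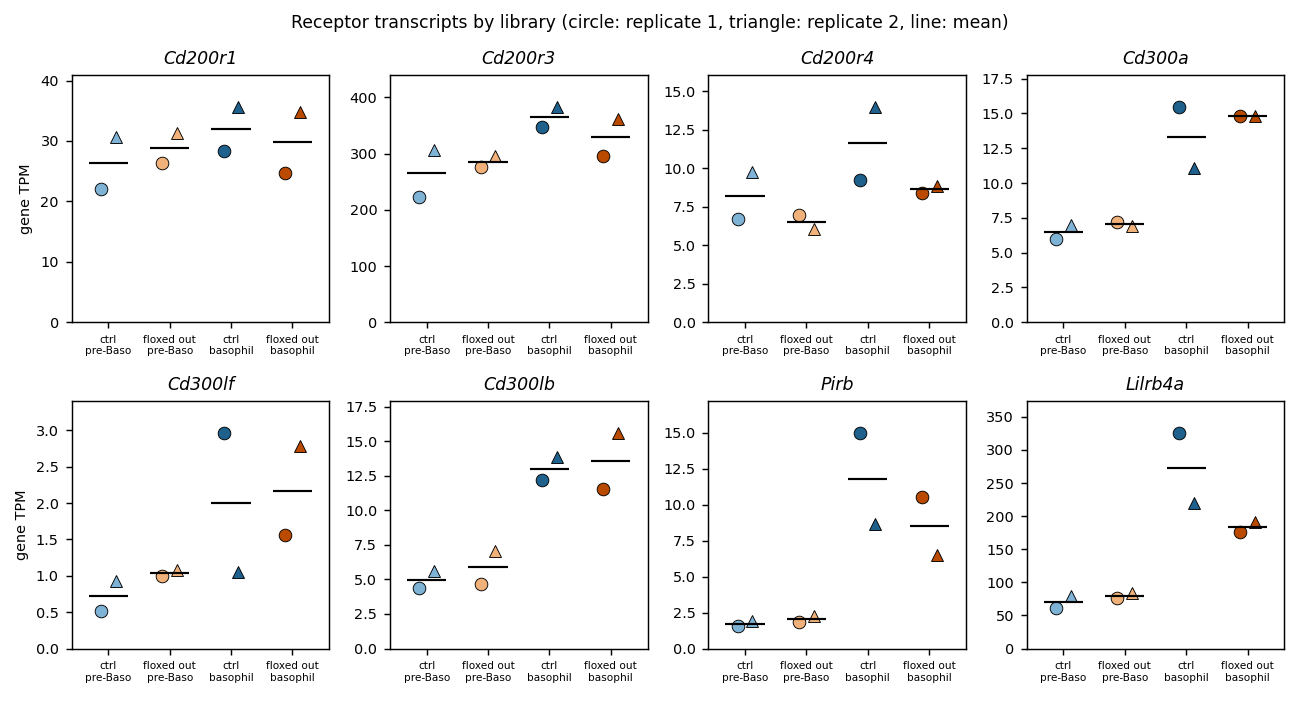
Gene TPM of the 8 receptor genes (vertical axes, linear from 0, each gene on its own scale) in the 4 groups (horizontal axis). Circles are replicate 1, triangles replicate 2 and lines the group means; the pre-Baso and basophil libraries do not overlap for Cd300a, Cd300lb, Pirb and Lilrb4a.

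Between pre-Baso and basophils, 4 of the 8 genes rose in both genotypes and none fell. These were Pirb and Lilrb4a, by 2.19 and 1.93 on the log2 scale in ctrl cells, and the 2 CD300 genes Cd300lb and Cd300a, by 1.24 and 0.92. The 3 genes of the CD200R cluster and Cd300lf did not pass the test in either genotype. As given below, the Lilrb4a call holds for the sum over all its annotated transcripts and not for its coding ones. The floxed-out calls were lost under several alternatives. The comparison asks how receptor transcripts differ between the 2 stages, and log2 changes are of TPM + 1 with standard errors (SE), which understates changes of genes near 1 TPM. In ctrl cells, 22.6% of the 12511 genes tested passed an adjusted p of 0.05 (limma, Benjamini-Hochberg) and 12.6% passed as higher in basophils, against 4 of 8 members, and 10% passed as lower, against 0 members. In floxed-out cells 10.9% of genes passed, 6.79% as higher and 4.11% as lower, against the same 4 of 8 members, all higher. The median change of the 8 genes was 0.82 in ctrl and 0.79 in floxed-out cells, and that of all tested genes 0.08 and 0.1. Of all called genes, 55.6% were higher in ctrl basophils and 62.3% in floxed-out basophils; with median-of-ratios scaling these shares were 46.8% and 46.3%. Without overlap between the 4 pre-Baso and the 4 basophil libraries, 4 members were higher in basophils, and 21.3% of all tested genes; 0 members were lower, and 13.1% of all tested genes.

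**Figure D2:**
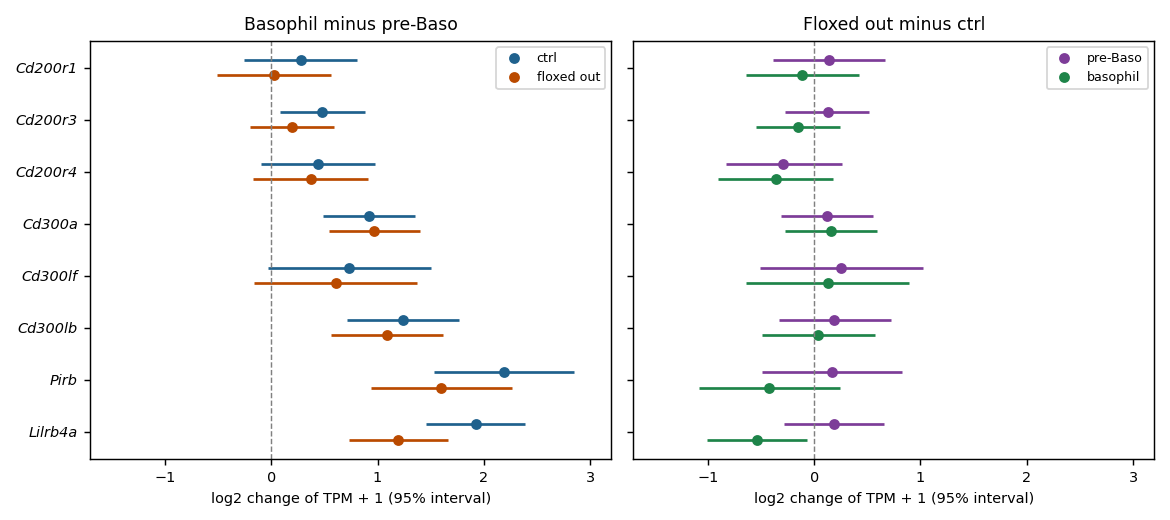
Log2 change of TPM + 1 with its 95% interval (horizontal axes) for the 8 receptor genes (vertical axis). Left, basophil minus pre-Baso in ctrl and floxed-out cells, where the intervals of Cd300a, Cd300lb, Pirb and Lilrb4a lie above 0 in both; right, floxed out minus ctrl in both populations, where only the unadjusted interval of Lilrb4a in basophils lies off 0.

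Among the inhibitory members, Pirb, which encodes a receptor for MHC class I molecules, was at 1.53 and 1.92 TPM in ctrl pre-Baso and at 15.0 and 8.65 TPM in ctrl basophils. In floxed-out cells it was at 1.87 and 2.27 TPM in pre-Baso and at 10.5 and 6.47 TPM in basophils. Every basophil library was above every pre-Baso library, and in each genotype the first basophil library was the higher one. The change was 2.19 ± 0.29 (SE, adjusted p = 0.00175, limma) in ctrl and 1.6 ± 0.29 (adjusted p = 0.0143, limma) in floxed-out cells. Without both first basophil libraries it was 1.83 (adjusted p = 0.00256, limma) and 1.29 (adjusted p = 0.0404, limma). Of the 50-base stretches in Pirb transcripts, 34% also occur in other genes, most often in Gm14548 (17.7%), so reads of the PIR-A relatives may have been split with it. The annotated PIR-A gene Pira2, named after its values were seen, was at 0.149 to 0.291 TPM in pre-Baso and 0.613 to 0.879 TPM in basophils. The level of Gm14548 is not given here, and the part of shared reads in the Pirb change was not tested.

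Lilrb4a encodes gp49B, an ITIM receptor known to bind the integrin αvβ3 and to restrain mast cell activation in mouse. It was at 61.5 and 79.1 TPM in ctrl pre-Baso and at 325.4 and 220.6 TPM in ctrl basophils. In floxed-out cells it was at 75.9 and 83.6 TPM in pre-Baso and at 176.3 and 191.1 TPM in basophils. All 4 basophil libraries were above all 4 pre-Baso libraries. The change was 1.93 ± 0.2 (SE, adjusted p = 0.000771, limma) in ctrl and 1.19 ± 0.2 (adjusted p = 0.0125, limma) in floxed-out cells, and 1.65 (adjusted p = 0.00346, limma) and 1.25 (adjusted p = 0.0395, limma) without both first basophil libraries. Relative to the sort marker, Cd200r3 had 3.54 to 3.87 times the TPM of Lilrb4a in pre-Baso and 1.07 to 1.89 times in basophils.

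The Lilrb4a value sums 14 annotated transcripts, and which of them took the reads varied. Transcripts annotated as retained intron took 40.9% and 74.8% of its TPM in ctrl pre-Baso, 34.8% and 74.8% in floxed-out pre-Baso, and 76.8% to 89.4% in basophils. The protein-coding transcripts took 7.2% to 41.3% in pre-Baso and 1.8% to 21.5% in basophils, with values that overlapped. In TPM, the protein-coding transcripts summed to 25.4 and 5.73 in ctrl pre-Baso and to 69.9 and 3.94 in ctrl basophils, and to 22.4 and 16.2 in floxed-out pre-Baso and 12.4 and 8.07 in floxed-out basophils. The ctrl populations overlapped, and the floxed-out basophil values were below the floxed-out pre-Baso values. When annotated non-coding transcripts were left out, an alternative chosen after the data were seen, the Lilrb4a change was 0.49 in ctrl (adjusted p = 0.811, limma) and -0.86 in floxed-out cells (adjusted p = 0.687, limma). The Lilrb4a call thus holds for the sum over all its annotated transcripts.

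**Figure D3:**
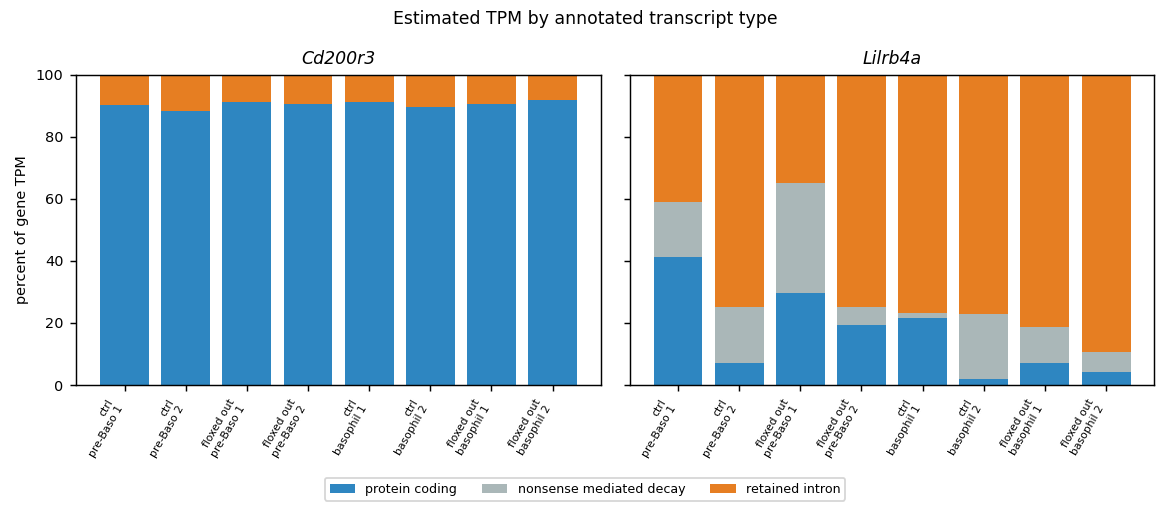
Share of gene TPM (vertical axes, percent) assigned to transcripts of each annotated type in the 8 libraries (horizontal axes) for Cd200r3 and Lilrb4a. Retained-intron transcripts take 8.3% to 11.7% of Cd200r3 and 34.8% to 89.4% of Lilrb4a.

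A relative next to Lilrb4a, Lilr4b (chr10:51480632-51486703, plus strand), was looked at after its values were seen because 47.2% of the 50-base stretches in Lilrb4a transcripts occur in other genes, 33.7% in Gm49339. Lilr4b was at 62.8 and 95.7 TPM in ctrl pre-Baso, 71.7 and 96.3 TPM in floxed-out pre-Baso, 399.5 and 276.8 TPM in ctrl basophils and 211.9 and 253.8 TPM in floxed-out basophils. Its change was 2.09 ± 0.26 (SE, adjusted p = 0.00132, limma) in ctrl and 1.47 ± 0.26 (adjusted p = 0.0131, limma) in floxed-out cells. Gm49339 was at 11.5 TPM in the second ctrl basophil library and at most at 0.48 TPM in the other 7. The sum of the 3 genes was 124.3 to 179.9 TPM in pre-Baso and 388.3 to 724.9 TPM in basophils, of which Lilrb4a took 43% to 51.3% in every library. How the counting divided shared reads between these copies cannot be told from the files, so Lilrb4a alone is uncertain.

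Cd300a encodes an ITIM receptor for phosphatidylserine and phosphatidylethanolamine. It was at 5.95 and 6.97 TPM in ctrl pre-Baso and 15.5 and 11.1 TPM in ctrl basophils, and at 7.22 and 6.94 TPM in floxed-out pre-Baso and 14.8 TPM in both floxed-out basophil libraries. The populations did not overlap. The change was 0.92 ± 0.19 (SE, adjusted p = 0.0106, limma) in ctrl and 0.97 ± 0.19 (adjusted p = 0.0186, limma) in floxed-out cells. Without both first basophil libraries it was 0.7 (adjusted p = 0.0971, limma) and 0.97 (adjusted p = 0.0757, limma), so neither call was kept in this smaller design, while the floxed-out value was the same.

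Cd300lf, the mouse CLM-1 gene, encodes an inhibitory receptor that is also known as a receptor for murine norovirus. It was at 0.52 and 0.93 TPM in ctrl pre-Baso, 0.999 and 1.08 TPM in floxed-out pre-Baso, 2.96 and 1.05 TPM in ctrl basophils and 1.56 and 2.78 TPM in floxed-out basophils. The second ctrl basophil library lay within the pre-Baso range. The change was 0.73 ± 0.33 (SE, adjusted p = 0.152, limma) in ctrl and 0.61 ± 0.33 (adjusted p = 0.275, limma) in floxed-out cells. Without ctrl basophil replicate 2 the ctrl change was 1.21 (adjusted p = 0.0348, limma). Only 0.6 to 3.8 kilobases of sequence were assigned to it per library, against 233.5 to 346.5 kilobases for Cd200r3.

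Cd200r1, which encodes the receptor for CD200, was at 22.0 and 30.7 TPM in ctrl pre-Baso, 26.4 and 31.4 TPM in floxed-out pre-Baso, 28.3 and 35.6 TPM in ctrl basophils and 24.7 and 34.8 TPM in floxed-out basophils. All 4 groups overlapped. The change was 0.28 ± 0.23 (SE, adjusted p = 0.432, limma) in ctrl, with a 95% interval from -0.26 to 0.81. In floxed-out cells it was 0.03 ± 0.23 (adjusted p = 0.957, limma), interval -0.51 to 0.56, and -0.09 with median-of-ratios scaling. Its ligand gene Cd200, named after its values were seen, was listed at 0 in all 4 pre-Baso libraries and at most at 0.287 TPM in basophils.

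Among the activating members, Cd300lb passed the test in both genotypes, while Cd200r3 and Cd200r4 passed in neither. Members were not tested against each other. Cd300lb was at 4.34 and 5.59 TPM in ctrl pre-Baso and 12.2 and 13.9 TPM in ctrl basophils, and at 4.70 and 7.08 TPM in floxed-out pre-Baso and 11.5 and 15.6 TPM in floxed-out basophils. The populations did not overlap, and here the second library was the higher one in every group. The change was 1.24 ± 0.23 (SE, adjusted p = 0.00752, limma) in ctrl and 1.09 ± 0.23 (adjusted p = 0.0251, limma) in floxed-out cells. Without both first basophil libraries it was 1.33 (adjusted p = 0.0195, limma) and 1.29 (adjusted p = 0.0552, limma), so the floxed-out call was lost in this smaller design while the value was larger. None of the 50-base stretches in the Cd300lb transcripts of GENCODE M21 occur in another gene. The transcript that took 94.9% to 100% of its TPM is not in that release and was not searched. Its ends and its length of 2880 bases equal those of a transcript that was.

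Cd200r3, the sort marker, was at 223.0 and 306.3 TPM in ctrl pre-Baso, 275.7 and 296.0 TPM in floxed-out pre-Baso, 346.9 and 383.1 TPM in ctrl basophils and 296.4 and 361.6 TPM in floxed-out basophils. Both ctrl basophil libraries were above all pre-Baso libraries, and the first floxed-out basophil library was not. The change was 0.48 ± 0.17 (SE, adjusted p = 0.0816, limma), 95% interval 0.08 to 0.88, in ctrl and 0.2 ± 0.17 (adjusted p = 0.502, limma), interval -0.2 to 0.59, in floxed-out cells. The ctrl change passed the threshold when TPM was rescaled to protein-coding genes (0.49, adjusted p = 0.0289, limma) and without ctrl pre-Baso replicate 2 (0.71, adjusted p = 0.0299, limma). Of its 10 annotated transcripts, the 2 with the most distal ends took 43.3% to 54.7% of its TPM, 7 others with coding annotation took 36.3% to 48%, and a retained-intron transcript took 8.3% to 11.7%. These shares had overlapping ranges in pre-Baso and basophils. Cd200r3 had 9.43 to 10.4 times the TPM of its cluster neighbour Cd200r1 in pre-Baso and 10.4 to 12.3 times in basophils.

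Cd200r4 was at 6.69 and 9.78 TPM in ctrl pre-Baso, 6.94 and 6.03 TPM in floxed-out pre-Baso, 9.23 and 14.0 TPM in ctrl basophils and 8.42 and 8.87 TPM in floxed-out basophils. The second ctrl library was the highest in each population. The change was 0.44 ± 0.24 (SE, adjusted p = 0.215, limma), 95% interval -0.1 to 0.98, in ctrl and 0.37 ± 0.24 (adjusted p = 0.347, limma), interval -0.17 to 0.91, in floxed-out cells. Its reads were assigned to 2 coding transcripts, ENSMUST00000176321 in 5 libraries, ENSMUST00000176819 in both second ctrl libraries, and both in the first ctrl basophil library. Its cluster neighbour Cd200r2, named after its values were seen, did not exceed 0.307 TPM.

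The floxed-out calls were lost under more alternatives than the ctrl calls. Calls over all genes in floxed-out cells fell as well. They were 1363 of 12511 genes tested in the full fit, 298 of 32088 without a filter on low values, and 330 of 12094 with each gene read from 1 transcript. In the full fit 3517 of all tested genes had an unadjusted p under 0.05 (limma). With a replicate left out, the remaining lone library of that group is assumed to vary like the other groups. Without floxed-out pre-Baso replicate 1, without floxed-out basophil replicate 1, without a filter on low values, or with each gene read from 1 transcript, 0 of the 8 genes passed in floxed-out cells (limma; at unadjusted p under 0.05 in the full fit, 4 did), and without floxed-out basophil replicate 2 only Pirb did (adjusted p = 0.0177, limma). Cd300a was also lost without floxed-out pre-Baso replicate 2 (adjusted p = 0.0727, limma), and Cd300lb when only the compared groups were fitted (adjusted p = 0.0666, limma). In ctrl cells Pirb and Lilrb4a passed whichever replicate was left out; without ctrl pre-Baso replicate 1, Cd300a (0.82, adjusted p = 0.065, limma) and Cd300lb (1.09, adjusted p = 0.056, limma) did not, and without ctrl basophil replicate 1 Cd300a did not (0.7, adjusted p = 0.0686, limma).

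**Figure D4:**
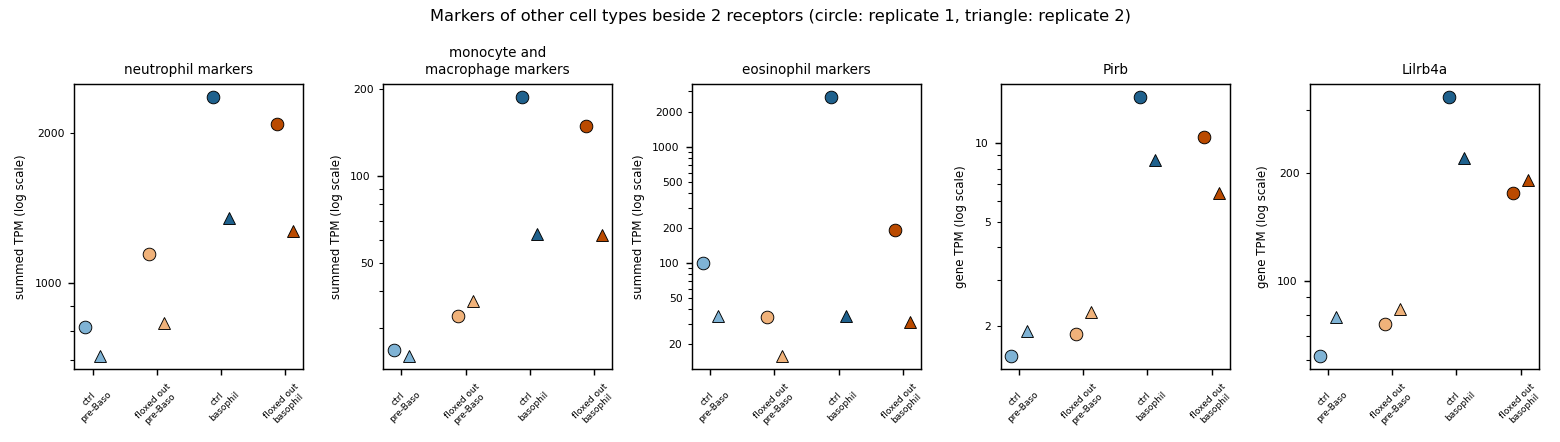
Summed TPM of neutrophil, monocyte and macrophage, and eosinophil markers and gene TPM of Pirb and Lilrb4a (vertical axes, log scale) in the 4 groups (horizontal axis); circles are replicate 1 and triangles replicate 2. Pirb is highest in the 2 first basophil libraries, at 15.0 and 10.5 TPM, where the monocyte and macrophage markers are also highest, at 186.5 and 148 TPM.

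In both genotypes the basophil library with more monocyte and macrophage marker RNA also had more Pirb. For Lilrb4a that held in ctrl but not in floxed-out basophils, and for Cd300lb in neither. Neutrophils, monocytes and eosinophils are known to express several of these receptors, Pirb among them. In the 2 second basophil libraries, where monocyte and macrophage markers were at 63 and 62.7 TPM and eosinophil markers at 35.4 and 31 TPM, Pirb was at 8.65 and 6.47 TPM, against at most 2.27 TPM in pre-Baso. In these 2 libraries the monocyte and macrophage markers were above every pre-Baso library (at most 37.1 TPM), as were the neutrophil markers, at 1347 and 1271 TPM. The part of these markers' cells in the receptor levels was not tested.

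Between the genotypes, no difference passed for any of the 8 genes. Loss of Nfil3 was thus not accompanied by a detected change of CD200R, CD300, PIR-B or LILRB4 transcripts in pre-Baso or in basophils. In pre-Baso, 0 of 8 members passed in limma, and 0 at an unadjusted p under 0.05, where 0.0639% of all tested genes were called and 548 had such an unadjusted p. Log2 differences, floxed out minus ctrl, ran from -0.29 for Cd200r4 to 0.25 for Cd300lf, with 95% intervals within -0.83 to 1.02. In basophils, 0 of 8 passed in limma and 1 had an unadjusted p under 0.05, where 0.056% of genes were called and 1065 had such an unadjusted p. That gene was Lilrb4a, at 325.4 and 220.6 TPM in ctrl and 176.3 and 191.1 TPM in floxed-out basophils, a difference of -0.54 ± 0.2 (SE, adjusted p = 0.496, limma). Cd200r4 was at 9.23 and 14.0 TPM in ctrl and 8.42 and 8.87 TPM in floxed-out basophils. Whether the libraries of the genotypes overlap is not read as a result, because the share of all tested genes without overlap was not counted. Without ctrl basophil replicate 1 the Lilrb4a difference was -0.26. Pirb differed by -0.42 ± 0.29 (SE, adjusted p = 0.744, limma) and Cd200r4 by -0.36 ± 0.24 (adjusted p = 0.728, limma). For the sort marker Cd200r3 the difference was 0.13, interval -0.27 to 0.52, in pre-Baso and -0.15, interval -0.55 to 0.24, in basophils. These intervals leave room for changes in either direction, so alike levels are not shown.

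The difference between genotypes in the step from pre-Baso to basophil was tested as an interaction. None of the 8 genes passed in limma, and 0% of all tested genes did, while 689 genes and 1 member had an unadjusted p under 0.05. The member was Lilrb4a, whose change was smaller in floxed-out cells by -0.73 ± 0.29 (SE, adjusted p = 0.897, limma). Pirb had -0.59 ± 0.41 (SE, adjusted p = 0.957, limma), and Cd300a, at 0.04 ± 0.27 (adjusted p = 0.997, limma), the smallest difference of the 8.

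Other genes of these pathways were followed in lists, whose counts stand beside the shares of all tested genes that passed: 12.6% higher and 10% lower in ctrl, and 6.79% higher and 4.11% lower in floxed-out cells. Markers of other cell types moved in the same step. All 10 neutrophil markers had positive changes in both genotypes, with medians of 1.13 in ctrl and 0.9 in floxed-out cells, and 7 and 4 of them rose. The 9 tested monocyte and macrophage markers had medians of 1.51 and 1.35, and 3 and 1 of them rose. The 8 eosinophil markers had medians of 1.96 and 1.43, and 2 rose in each genotype. The part of these cells in the list changes was not tested. Of the DAP12 and related adaptor chains, 4 were tested: 2 rose from pre-Baso to basophil in ctrl, 1 in floxed-out cells, and none fell. Tyrobp, the adaptor of CD200R3, CD200R4 and CD300lb, was at 1301 and 1684 TPM in ctrl pre-Baso and 2756 and 2633 TPM in ctrl basophils, and at 1720 and 1600 TPM and 2351 and 2247 TPM in the floxed-out groups. Its change was 0.86 ± 0.12 (SE, adjusted p = 0.00256, limma) in ctrl and 0.47 ± 0.12 (adjusted p = 0.0473, limma) in floxed-out cells, while the sort marker that depends on it did not pass. Hcst, which encodes DAP10, rose by 0.59 ± 0.14 in ctrl (adjusted p = 0.0163, limma).

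A list of kinases, phosphatases and adaptors of receptor signalling held 23 tested genes. Of these, 9 rose in ctrl and 7 in floxed-out cells, and none fell. Inpp5b, which rose in both genotypes, is not known to act at receptor tails. In ctrl cells the lowest adjusted p-values were those of Ptprc, encoding the phosphatase CD45, at 1.26 (adjusted p = 0.00249, limma), Inpp5b at 1.13, Csk, a kinase that restrains Src kinases, at 0.99, and Syk, the kinase recruited by ITAMs, at 0.93. In floxed-out cells they were those of Csk at 0.96, Btk at 1.01, Inpp5b at 0.86 and Syk at 0.75. The median change of the list was 0.63 in ctrl and 0.48 in floxed-out cells, against 0.08 and 0.1 over all tested genes and 1.13 and 0.9 for the neutrophil markers. The gene of the ITIM-bound phosphatase SHP-1, Ptpn6, named after its values were seen, did not pass, at 0.49 (adjusted p = 0.0827, limma) and 0.48 (adjusted p = 0.125, limma).

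Among 15 tested inhibitory receptors of other families, 4 rose and 3 fell in ctrl, and 3 rose and 1 fell in floxed-out cells. Siglecf, an inhibitory lectin best known from eosinophils, changed by 1.87 (adjusted p = 0.0019, limma) in ctrl and 1.47 (adjusted p = 0.012, limma) in floxed-out cells. The eosinophil markers moved with it, with positive changes in 8 of 8 in both genotypes. Milr1, which encodes allergin-1, an inhibitory receptor of mast cells, changed by 1.06 and 1.41, and Vsir, encoding VISTA, by 1.24 in floxed-out cells. Clec12a, an ITIM lectin, went the other way, at 47.6 and 52.4 TPM in ctrl pre-Baso and 16.7 and 10.9 TPM in ctrl basophils. It changed by -1.81 (adjusted p = 0.00167, limma) in ctrl and -1.38 (adjusted p = 0.012, limma) in floxed-out cells. Lair1, a collagen receptor, changed by -1.34 (adjusted p = 0.0134, limma) in ctrl. The 15 genes had a median change of 0.46 in ctrl and 0.31 in floxed-out cells, against 0.08 and 0.1 over all tested genes.

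Of 12 tested activating receptors with an ITAM adaptor, 3 rose and 1 fell in ctrl, and 1 fell in floxed-out cells. The one that fell was Fcer1a, the gene of the MAR1 antigen by which the populations were gated, at -1.29 in ctrl (adjusted p = 0.0109, limma) and -1.65 in floxed-out cells (adjusted p = 0.0101, limma). Pre-Baso were gated as high and basophils as intermediate for this antigen, so this fall is not independent of the sort. Fcgr3, a low-affinity IgG receptor, rose by 0.59 in ctrl (adjusted p = 0.0142, limma), and Sirpb1b and Trem3 by 1.41 and 0.84. Of 10 tested ligand genes, 4 rose in ctrl and 3 in floxed-out cells. These included Itgb3, one chain of the integrin that LILRB4 binds, at 1.65 (adjusted p = 0.000648, limma) in ctrl and 1.37 (adjusted p = 0.00474, limma) in floxed-out cells. H2-D1, a class I molecule of the kind PIR-B binds, rose by 0.9 and 0.6. A list of 20 further relatives did not hold Lilr4b, which passed in both genotypes as given above. Of those 20, 13 were found in the files, 4 passed the filter on low values and 0 passed the test in either genotype in limma. In none of these lists did a gene pass between the genotypes. Of the basophil list used to check the libraries, 1 gene passed as lower in floxed-out cells in each population. In basophils, 1 of 6 granulocyte progenitor genes and 1 of 13 G2 and M phase genes passed as higher in floxed-out cells. The progenitor genes summed to 199.9 and 147.7 TPM in ctrl and 485.5 and 752.1 TPM in floxed-out basophils. The phase genes summed to 25.4 and 27.5, and to 59.8 and 108.4 TPM. Their part in the receptor levels was not tested.

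The genes most like each member over the 8 libraries were found by the root mean square difference of centred log2(TPM + 1) among 4125 protein-coding genes of at least 5 TPM on average. For Cd200r3 they were Hmces (0.055), Ccr1 (0.073) and Ap1m1 (0.076), and for Cd200r1 Ccr1 (0.095), Smim15 (0.101) and Rbm25 (0.103). Ccr1, a chemokine receptor gene, was thus near both. For Cd300a they were Ruvbl1 (0.084), Stx4a (0.105) and Ier2 (0.117), and for Cd300lb they included Fcho2 (0.128) and N4bp2l1 (0.128). For Pirb, whose level varied most, they were Tbc1d4 (0.17), Junb (0.206) and H2-Q10 (0.22), and Lilrb4a had Neurl3 (0.137), Ccpg1 (0.138) and Clec2d (0.145). The root mean square of the centred profile itself was 0.993 for Pirb, 0.231 for Cd200r3 and 0.218 for Cd200r1. Distances are therefore not comparable between members. For Cd200r4 they were G430095P16Rik (0.085), Mrpl43 (0.109) and Lasp1 (0.112), and for Cd300lf Spsb2 (0.172), Unc13d (0.174) and Ier2 (0.178).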

How the data were processed

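The 8 deposited tables list 142699 annotated transcripts each. Per the labels' protocols, RNA was extracted with TRIzol LS and Direct-zol and libraries were made with a SMARTER mRNA-Seq kit. HISAT2 and mm10 are named in the submitters' processing notes, and the file headers show StringTie 2.1.4 run on Ensembl release 101 without assembly of further transcripts. The command names no strand option, so antisense reads are not separated. The deposited values used, among other attributes, were TPM as the authors' software wrote them, with no read counts. Depth was taken as coverage times length.

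Gene TPM was the sum over transcripts. Genes at 1 TPM or more in at least 2 of 8 libraries (12511) were fitted on log2(TPM + 1) with limma 3.58.1 in R 4.3.3, with a variance trend, 1 mean per group and 4 residual degrees of freedom. P-values are two-sided, adjusted by Benjamini-Hochberg over all genes within each of 5 contrasts, and called under 0.05. The procedure was tested on simulated data. Transcript types came from GENCODE M21, which holds 48 of the 49 member transcripts. Replicate numbers were not treated as pairs, since correlations of same-numbered deviations were not all over 0.1: that of the 2 basophil groups was 0.202, and the other 5 ran from -0.054 to 0.057.

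Genes named were all members, up to 4 called genes per list with the smallest adjusted p, the most abundant marker of another cell type, the 3 nearest profiles per member (1 of them is not reported here), and checks of the labels; exceptions are stated. The members and lists were chosen with earlier results of these data known. Alternatives covered scaling, pseudocount, filter, groups fitted, replicate block, 1 transcript per gene and each library left out, and, added after the data were seen, the removal of both first basophil libraries and of annotated non-coding transcripts.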

Additional observations from a re-analysis of the deposited data

How the results depend on the processing

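Assigned sequence was least for Cd300lf, at 0.6 to 3.8 kilobases per library, and with 2 libraries a group 1 library can decide a call. The cause of the shifts below was not tested. No member passed between the genotypes or in the interaction under any alternative run.

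Genes called between genotypes in pre-Baso were 8, against 5 with protein-coding genes only, 23 without a filter, 3 with the compared groups only, 32 with 1 transcript per gene, 20 without both first basophil libraries, 13 without annotated non-coding transcripts, and 5 to 10 with a library left out. In basophils they were 7, against 18, 18, 4, 24, 26 and 11 in the same order, 16 with a pseudocount of 0.1, and 6 to 19 with a library left out. With protein-coding genes only, 83.3% of the latter calls were higher in floxed-out cells, against 57.1%, and in pre-Baso 40%, against 50%.

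From pre-Baso to basophil in ctrl, 2832 genes were called, against 1516 without a filter, 1575 with 1 transcript per gene, 1639 without both first basophil libraries, 1789 without non-coding transcripts and 1397 to 2722 with a library left out; members called were 4, and 2 to 5 with a library left out. In floxed-out cells 1363 genes were called, against 298, 330, 336 and 749 in that order, 562 with the compared groups only and 20 to 1367 with a library left out. Members called there were 4, against 0 without a filter, 0 with 1 transcript per gene, 2 without both first basophil libraries and 0 to 4 with a library left out. The interaction called 0 genes, against 2 with protein-coding genes only, 2 with a pseudocount of 0.1, 13 with 1 transcript per gene, 5 without non-coding transcripts and 0 to 3 with a library left out.

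Signs turned in these cases. For the fit with 1 transcript per gene, Cd200r4 was read from ENSMUST00000176321, which was listed at 0 TPM in both second ctrl libraries. With 1 transcript per gene, genotype differences were 1.43 for Cd200r4 and 0 for Cd300a in pre-Baso and 1.75 for Cd200r4, -0.21 for Cd300a and -0.01 for Cd300lb in basophils; the floxed-out change of Cd200r3 was -0.17, and the interaction 0.32 for Cd200r4 and -0.2 for Cd300a. In floxed-out cells Cd200r1 changed by -0.09 with median-of-ratios scaling and Lilrb4a by -0.86 without non-coding transcripts. The interaction of Cd300lf was 0.63 without both first basophil libraries.

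With a library left out, genotype differences in pre-Baso ran from -0.09 to 0.37 for Cd200r1, -0.1 to 0.36 for Cd200r3 and -0.06 to 0.45 for Cd300lb. In basophils they ran from -0.35 to 0.13 for Cd200r1, -0.06 to 0.38 for Cd300a, -0.35 to 0.6 for Cd300lf and -0.16 to 0.25 for Cd300lb. The floxed-out change of Cd200r1 ran from -0.21 to 0.27, and interactions from -0.35 to 0.2 for Cd200r4, -0.18 to 0.27 for Cd300a, -0.6 to 0.35 for Cd300lf and -0.4 to 0.1 for Cd300lb.

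With the replicate number as a block, 2778 genes were called in ctrl and 1290 in floxed-out cells, and Cd200r3 passed in ctrl at 0.48 (adjusted p = 0.0475, limma); this replicate block changed no other member's call.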

Other observations

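Some relatives of the 8 receptor genes, named after their values were seen, were highest in the first basophil library of each genotype. Cd300e, a DAP12-coupled receptor known from monocytes, was at 2.65 and 1.48 TPM in the first ctrl and floxed-out basophil libraries and listed at 0 in the other 6. Cd300c2 was at 6.13 and 7.24 TPM in these libraries, at 1.9 and 2.21 TPM in the second ones and at 0 to 1.41 TPM in pre-Baso. Neither passed the test between pre-Baso and basophils.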
